A study of Mus musculus with 4 samples.

Results

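The circadian clock genes examined here are 10 genes chosen by name from a table of 48432 gene rows: Arntl and Clock, the activators of the clock; Per1, Per2, Per3 and Cry1, its repressors; Nr1d1 and Nr1d2, which encode the REV-ERB receptors; and Dbp and Tef, which carry the rhythm to other genes. All 10 were found in 1 row each and had the status OK in both groups, and their values were inside their own bounds. Messenger RNA came from cardiomyocytes isolated by Langendorff perfusion from hearts of mice of a C57BL x FVB background after 3 days on a diet with doxycycline, the drug used to switch on inducible transgenes. The control group, labelled MHC, had 2 libraries, and the Rbfox2 OE group, labelled with the genotype RbFox2, had 2 libraries. The series concerns overexpression of the non-muscle isoform of RBFOX2, a protein that binds RNA and sets splice choices, in relation to cardiac conduction in myotonic dystrophy. The labels do not spell out what MHC stands for, which promoter drives the transgene, or whether each library came from 1 animal. They give no age, no sex and no hour of harvest.

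The clock is a loop of transcription factors that runs in nearly every cell, the cardiomyocyte included. ARNTL (also called BMAL1) and CLOCK form a dimer that binds the E-box sequence and activates the Per, Cry, REV-ERB and Dbp genes. PER and CRY proteins return to the nucleus and block that dimer, while REV-ERB proteins repress Arntl through an element that the ROR receptors use to activate it. In heart and other tissues Arntl transcripts peak at a phase nearly opposite to those of Nr1d1, Per3 and Dbp. Samples taken at different hours can have these groups shifted in opposite directions, though not at every pair of hours. The present values were therefore compared limb by limb.

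The motifs of the loop were looked for in RefSeq promoters (GRCm38.p6), each of 300 bases from 250 before to 50 after a transcription start, on both strands. Of the 10 genes, 9 matched a promoter in that table, with 14 promoters in all, and 6 had at least 1 motif. Motifs were the E-box CACGTG, which reads the same on both strands and is found in 7.15% of all 32851 promoters; the variant E-box CACGTT (4.68%); the D-box, bound by DBP and TEF, as TTATGTAA (0.938%) or TTACGTAA (0.119%); and the REV-ERB and ROR element as ANTAGGTCA (0.661%). The E-box and its variant differ in the last base and cannot match at the same position of a strand. Stretches with a match are shown for the 6 genes and for Nfil3, Ciart and Cry2, the clock genes outside the 10 that had both a match and separate bounds, so that motif and values can be read side by side; capitals mark the motif. Bhlhe41 (an E-box) and Timeless (a D-box) also had a match, with overlapping bounds, as did Rorb (a variant E-box), which was under 1 FPKM; these are not shown. A match describes letters and not a bound site. A match in capitals on the opposite strand reads AACGTG for the variant E-box and TGACCTACT for the REV-ERB and ROR element.
Per1 (chr11:69098764-69098813, plus strand): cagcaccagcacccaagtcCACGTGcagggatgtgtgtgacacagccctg
Cry1 (chr10:85185090-85185149, minus strand): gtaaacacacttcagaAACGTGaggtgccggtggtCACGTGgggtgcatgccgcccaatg
Nr1d1 (chr11:98775383-98775432, minus strand): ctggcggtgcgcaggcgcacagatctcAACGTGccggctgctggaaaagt
Tef, first start (chr15:81802523-81802572, plus strand): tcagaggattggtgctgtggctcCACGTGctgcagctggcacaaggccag
Tef, other start (chr15:81811254-81811303, plus strand): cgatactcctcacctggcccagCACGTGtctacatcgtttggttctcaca
Per3 (chr4:151044801-151044880, minus strand): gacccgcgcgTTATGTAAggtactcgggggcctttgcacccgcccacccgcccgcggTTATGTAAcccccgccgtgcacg
Arntl (chr7:113207528-113207556, plus strand, just after the start): ggaaggcagaaAGTAGGTCAgggacggag
Nfil3 (chr13:52981040-52981089, minus strand): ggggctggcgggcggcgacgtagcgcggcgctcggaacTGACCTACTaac
Ciart (chr3:95882254-95882353, minus strand): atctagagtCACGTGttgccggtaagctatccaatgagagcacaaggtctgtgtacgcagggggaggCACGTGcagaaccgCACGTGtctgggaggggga
Cry2 (chr2:92434210-92434259, minus strand): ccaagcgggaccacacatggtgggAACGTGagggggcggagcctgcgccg

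The E-box of Per1 began 166 bases before the first of its 2 listed starts, which lies inside the annotated gene and not at its 5′ end, and that of Cry1 60 bases before its start, with a variant E-box at 79 bases. Nr1d1 had a variant E-box 28 bases before its start, and Tef had E-boxes 127 and 138 bases before its starts. Per3 had 2 D-boxes, 205 and 158 bases before the start. The REV-ERB and ROR element of Arntl began at base 29 of the transcribed part from the second of its 2 listed starts, and Nfil3, Ciart and Cry2 had this element, 3 E-boxes and a variant E-box, respectively. The promoters of Clock, Nr1d2 and Dbp held none of these letters in the window. Per2 was not in the promoter table.

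Levels are FPKM, in which fragments are scaled to transcript length and to a measure of library size. The authors pooled each group into 1 value with a bound on either side, whose level is not stated; bounds follow each value in parentheses. There is no value per library, so no spread between replicates and no test, and depth is unknown. A gene is called here when the bounds of the groups do not overlap; genes whose log2 ratio, with a pseudocount of 1 FPKM, reached 1 or -1 are counted separately as 2-fold. Rbfox2, the check of the labels, was at 14.7 FPKM in MHC and 293 FPKM in Rbfox2 OE. Of 11 cardiomyocyte markers, Myh6 and Mb had no estimate in either group and Atp2a2 none in the control. That status was given to 30 genes in MHC and 26 in Rbfox2 OE. The listed markers summed to 57769 and 37287 FPKM, with Myl2, Tnnt2 and Tnni3 among the highest. These sums cover unlike genes, since Atp2a2 counts in that of Rbfox2 OE alone and Myh6 and Mb in neither. The scaling of the groups is uncertain. Rescaling left out mitochondrial genes and the 10 genes with the highest listed mean FPKM. It raised the Rbfox2 OE values by 0.15 in log2 units, and the median over all genes compared went from -0.06 to 0.06. Genes without an estimate were not left out by status, so one with an estimate in a single group could count for that group alone.

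In the control, Dbp (62.3 FPKM), Nr1d1 (50.8 FPKM), Tef (42.6 FPKM) and Nr1d2 (32.6 FPKM) stood highest, followed by Per1 (14.4 FPKM) and Clock (7.78 FPKM). Per2 (3.33 FPKM), Arntl (3.06 FPKM), Per3 (2.89 FPKM) and Cry1 (1.82 FPKM) stood lowest. Of the 9 neighbouring pairs in that order, 7 had overlapping bounds, and the steps from Nr1d2 to Per1 and from Clock to Per2 did not overlap. In Rbfox2 OE the order was Nr1d1, Tef, Per1, Dbp, Nr1d2, Clock, Arntl, Per2, Cry1 and Per3, and all 9 neighbouring pairs overlapped. Dbp thus stood at rank 1 in the control and rank 4 in Rbfox2 OE, while Per1 stood at rank 5 and rank 3. The 10 genes summed to 222 FPKM in MHC cells and 170 FPKM in Rbfox2 OE.

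**Figure D1:**
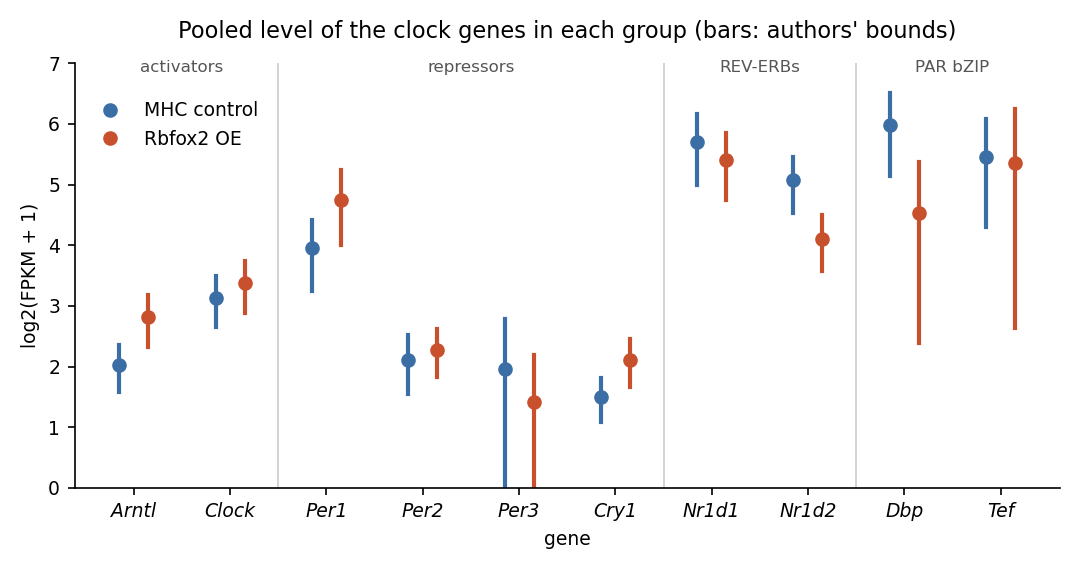
Pooled level of each of the 10 clock genes as log2(FPKM + 1), with dots for the authors' value and vertical lines for their lower and upper bound, in the MHC control (blue) and Rbfox2 OE (orange). The lines of Nr1d2 do not overlap, those of Arntl overlap narrowly, and those of Per3, Dbp and Tef are long.

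By the authors' bounds, 1 of the 10 genes was lower in Rbfox2 OE, Nr1d2, and 0 were higher. Over all 11697 genes that averaged 1 FPKM or more, 16.0% had separate bounds, 6.67% higher and 9.33% lower, so the share of the clock genes called was not above that of genes at large. By the 2-fold count, 1 of the 10 was lower, Dbp, and 0 were higher, against 17.0% of all genes compared in either direction. With the rescaled values the calls by bounds changed place: Arntl became separate and higher, and Nr1d2 no longer was separate, while 15.8% of all genes were called (8.63% higher and 7.16% lower), and the 2-fold count stayed at Dbp alone beside 16.8% of all genes. That rescaling also turned the split of all genes called by bounds from 780 higher and 1091 lower to 1009 higher and 838 lower. The log2 ratios of the clock genes lay above 0 for 5 and below 0 for 5, with a median of 0.03 against -0.06 over all genes compared, and Tef crossed to the upper side on rescaling, at 0.050.

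The activators were both higher in Rbfox2 OE as values. Arntl (ENSMUSG00000055116, GRCm38 chromosome 7, 113207465 to 113314126, plus strand, protein-coding), the factor without which the loop stops, stood at 3.06 FPKM in MHC cells (1.98 to 4.13) and 6.02 FPKM in Rbfox2 OE cells (4.02 to 8.02). The bounds overlapped only between 4.02 and 4.13 FPKM. Its log2 ratio was 0.79, and the bounds allowed -0.03 to 1.60. Of all genes compared, 89.3% had a lower log2 ratio. Rescaled, the lower bound in Rbfox2 OE was 4.45 FPKM, above the control's upper bound, and the log2 ratio was 0.92. Clock (chromosome 5, 76209868 to 76304792, minus strand), the partner of ARNTL and a gene known for a shallow rhythm, stood at 7.78 FPKM (5.28 to 10.3) and 9.41 FPKM (6.39 to 12.4), a log2 ratio of 0.24 with widely overlapping bounds. Gm43658 and Ube2n-ps1 overlap Clock on the same strand, and their part in its value is unknown. Per length, Clock stood at 2.55 times Arntl in the control, with separate bounds, and at 1.56 times in Rbfox2 OE, with overlapping bounds. Npas2 and Arntl2, relatives that can stand in for CLOCK and ARNTL, had means under 1 FPKM and were not compared.

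The repressors did not stand on one side. Per1 (chromosome 11, 69095217 to 69109960, plus strand), which also answers quickly to glucocorticoids and to cyclic AMP, stood at 14.4 FPKM in MHC cells (8.43 to 20.4) and 26.0 FPKM in Rbfox2 OE cells (15.1 to 36.8), a log2 ratio of 0.81 that the bounds placed between -0.41 and 2.0. Cry1 (chromosome 10, 85131700 to 85185064, minus strand), the late repressor of the loop, stood at 1.82 FPKM (1.12 to 2.51) and 3.33 FPKM (2.17 to 4.49), a log2 ratio of 0.62. Both values lay on the side of Arntl, with overlapping bounds.

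Per2 (chromosome 1, 91415982 to 91459324, minus strand), the PER protein most needed for rhythm, was close between groups, at 3.33 FPKM (1.91 to 4.74) and 3.84 FPKM (2.54 to 5.14), a log2 ratio of 0.16. Per3 (chromosome 4, 151003652 to 151044665, minus strand), a less essential member with a strong rhythm in peripheral tissues, stood at 2.89 FPKM (0 to 5.89) and 1.68 FPKM (0 to 3.56), a log2 ratio of -0.54. The lower bounds of 0 leave its direction undetermined, and its row shares 1 locus with 7 other genes, Camta1 among them, which overlaps it on the same strand. Cry2, the partner of CRY1 that is not among the 10, fell from 10.7 FPKM (7.37 to 14.0) to 5.01 FPKM (3.35 to 6.67), a log2 ratio of -0.96 whose bounds overlapped on rescaling. The level of Cry2 over Cry1 was 5.87 in the control and 3.91-fold lower in Rbfox2 OE. The ranges by the bounds, 2.94 to 12.4 and 0.747 to 3.07, overlapped.

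The REV-ERB genes were both lower in Rbfox2 OE as values. Nr1d2 (ENSMUSG00000021775, chromosome 14, 18204054 to 18239127, minus strand), which encodes REV-ERB beta, fell from 32.6 FPKM (22.1 to 43.0) to 16.2 FPKM (10.8 to 21.5), 2.01-fold lower. With the pseudocount the log2 ratio was -0.97, and the bounds allowed -1.89 to -0.04. The gap between the bounds was narrow, and on rescaling the upper bound in Rbfox2 OE was 23.8 FPKM and overlapped the control. Nr1d1 (chromosome 11, 98767932 to 98775333, minus strand), which encodes REV-ERB alpha, stood at 50.8 FPKM (31.0 to 70.7) and 41.5 FPKM (26.0 to 57.0), a log2 ratio of -0.29 with overlapping bounds. Nr1d1 overlaps Thra on the opposite strand, and the table puts both in 1 locus; the libraries were made with a stranded kit, but use of strand in counting is not given in the sources used here, so its value is uncertain to that extent. Nr1d2 shares its locus with no other gene.

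Rora, a ROR receptor that competes with REV-ERB proteins for the same element, stood at 4.88 FPKM in MHC cells (2.68 to 7.08) and 4.83 FPKM in Rbfox2 OE cells (2.83 to 6.82), a log2 ratio of -0.014 that became 0.11 on rescaling, with overlapping bounds. Rorb was under 1 FPKM in both groups.

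The output factors were split. Dbp (ENSMUSG00000059824, chromosome 7, 45705088 to 45710203, plus strand), an activator at D-boxes whose transcript has one of the deepest rhythms known in mouse tissues, stood at 62.3 FPKM in MHC cells (34.3 to 90.3) and 22.2 FPKM in Rbfox2 OE cells (4.22 to 40.2), 2.81-fold lower. Its log2 ratio of -1.45 was the most negative of the 10, and 3.85% of all genes compared had a lower one. The bounds still overlapped between 34.3 and 40.2 FPKM, and the upper bound in Rbfox2 OE lay 81.0% above the value. Dbp overlaps Sphk2 on the opposite strand. Tef (chromosome 15, 81802421 to 81826863, plus strand), a related D-box activator with a shallower rhythm, stood at 42.6 FPKM (18.8 to 66.5) and 39.9 FPKM (5.22 to 74.5), a log2 ratio of -0.09. Its bounds were the widest, relative to the value, among the members above 10 FPKM, and its direction is not determined.

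Hlf, the third D-box activator of this family, fell from 12.1 FPKM (7.84 to 16.4) to 4.05 FPKM (2.32 to 5.77), a log2 ratio of -1.38. Nfil3 (also called E4BP4), the repressor that binds the same D-boxes, rose from 6.43 FPKM (4.28 to 8.58) to 22.9 FPKM (15.9 to 29.9), a log2 ratio of 1.69. Hlf and Nfil3 overlap no other annotated gene and kept separate bounds on rescaling. The level of Nfil3 over Dbp was 0.103 in the control and 1.03 in Rbfox2 OE, 9.99-fold higher. This ratio does not depend on the scaling of the groups, and its ranges by the bounds, 0.0473 to 0.250 and 0.395 to 7.09, were separate. Nfil3 over the sum of Dbp, Tef and Hlf was 0.0549 and 0.346, with overlapping ranges.

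**Figure D2:**
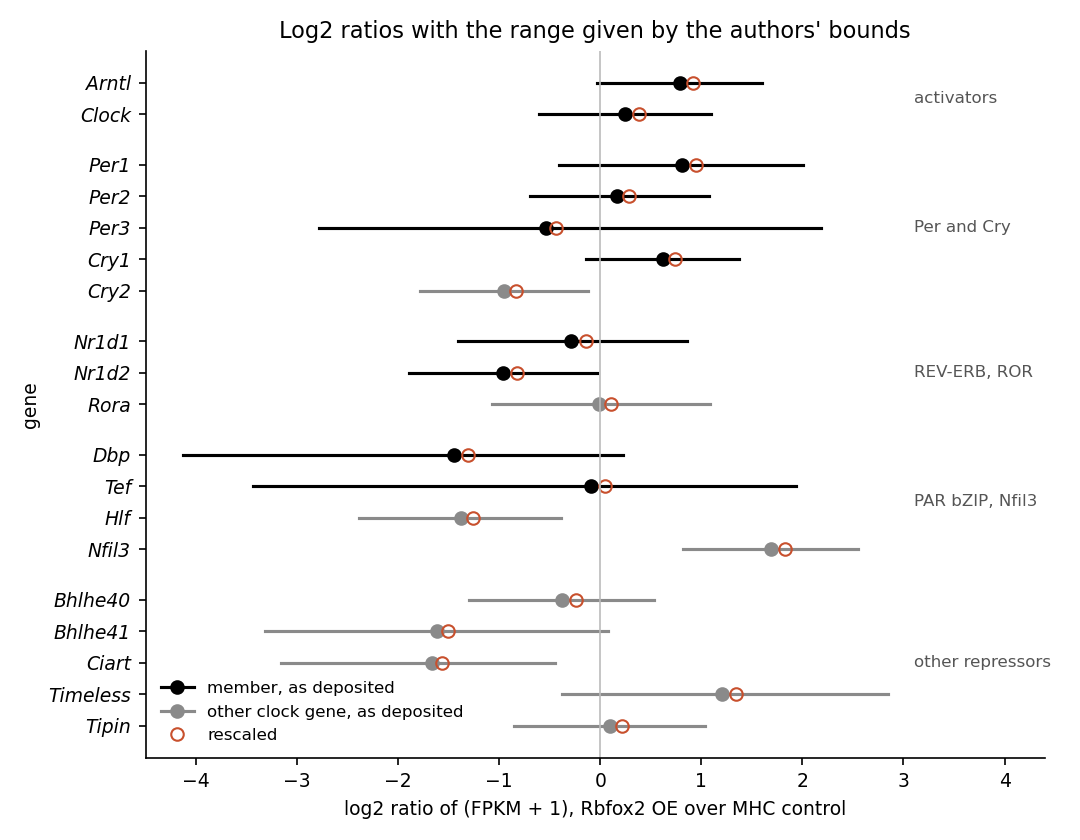
Log2 ratio of (FPKM + 1), Rbfox2 OE over MHC control, for the 10 clock genes (black) and the other clock genes compared (grey), grouped by role; lines run between the lowest and highest ratio that the authors' bounds allow, and open orange circles are the rescaled values. The lines of Nr1d2, Cry2, Hlf and Ciart lie below 0 and that of Nfil3 above 0, while Arntl reaches -0.03.

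Other genes of the wider clock came from a list of repressors that also held Timeless and Tipin. Ciart (also called CHRONO), a repressor of the ARNTL and CLOCK dimer whose promoter holds 3 E-boxes, fell from 9.61 FPKM (5.94 to 13.3) to 2.34 FPKM (0.593 to 4.09), a log2 ratio of -1.67. Bhlhe41 (DEC2), which competes for E-boxes, stood at 10.6 FPKM (4.51 to 16.8) and 2.80 FPKM (0.782 to 4.83), and Bhlhe40 (DEC1) at 40.3 and 30.7 FPKM, both with overlapping bounds. Timeless and Tipin, partners at the replication fork, stood at 5.41 and 13.7 FPKM and at 3.15 and 3.43 FPKM, also overlapping. In all, 9 of the 12 other clock genes examined were compared, of which 1 rose, 3 fell and 5 had overlapping bounds. After rescaling 1 rose and 2 fell. Over all genes compared, 6.67% were higher and 9.33% lower by bounds, and 8.63% and 7.16% after rescaling. Cry2, Ciart, Rora, Bhlhe40, Bhlhe41 and Timeless, like Arntl and Tef among the members, overlap an annotated gene on the opposite strand, and their values carry the same doubt as that of Nr1d1.

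The limbs were then set against each other within each group, since a ratio of 2 genes in the same group does not change with its scaling. The level over Arntl was lower in Rbfox2 OE for all 8 repressor, REV-ERB and output genes, but the ranges by the bounds overlapped for each. Without a pseudocount, Arntl had the highest FPKM ratio of Rbfox2 OE to MHC among the 10, so this shared direction follows from Arntl alone, and only the sizes of the differences describe the other genes. For Dbp the ratio was 20.4 in the control (range 8.29 to 45.6) and 3.69 in Rbfox2 OE (range 0.526 to 9.997), 5.53-fold lower. For Nr1d2 it was 10.7 (range 5.35 to 21.7) and 2.69 (range 1.35 to 5.36), 3.96-fold lower, with ranges that met only at 5.35 to 5.36. These were the largest of the 8 differences.

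Nr1d1 was 16.6 and 6.89 times Arntl, Tef 13.9 and 6.62 times, Per2 1.09 and 0.638 times and Per3 0.944 and 0.279 times. Per1 was 4.72 and 4.31 times Arntl, and Cry1 0.594 and 0.553 times, the smallest of the 8 differences. Against Clock in place of Arntl, the ratios of Per1 and Cry1 were higher in Rbfox2 OE, with log2 changes of 0.58 and 0.60, and the other 6 were lower. Of the 9 other clock genes compared, the ratio to Arntl was lower for 7 and higher for 2, Nfil3 and Timeless. The ranges were separate for 3 of the 9, Cry2, Hlf and Ciart, which had separate bounds of their own.

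**Figure D3:**
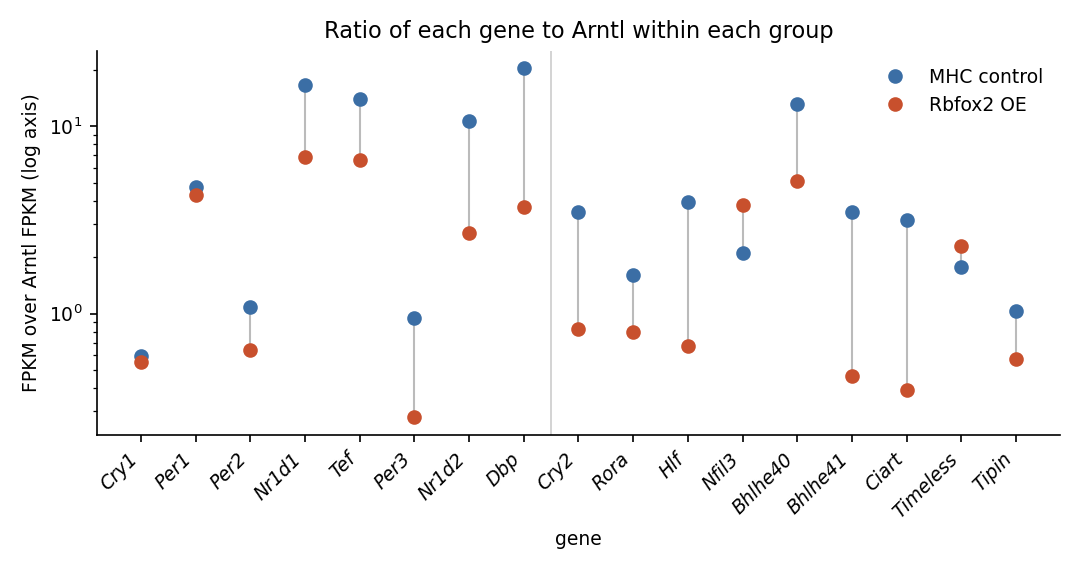
FPKM of each gene divided by the FPKM of Arntl within the same group, on a log axis, for the MHC control (blue) and Rbfox2 OE (orange), with the 8 repressor, REV-ERB and output members left of the vertical line and the 9 other clock genes compared right of it. Cry1 and Per1 nearly coincide, at 0.594 and 0.553 and at 4.72 and 4.31, while Dbp stands at 20.4 and 3.69 and Nfil3 and Timeless are higher in Rbfox2 OE.

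The answer to whether the limbs stood in opposite directions thus differed by gene. Sorted by the sign seen here, Arntl and Nfil3 were higher in Rbfox2 OE as values, and Nr1d2, Dbp, Hlf, Cry2 and Ciart were lower. The opposite signs of these sides follow from that sorting. Of the genes sorted, Nfil3, Nr1d2, Hlf, Cry2 and Ciart had separate bounds, those of Nr1d2 and Cry2 not on rescaling. Per1 and Cry1 lay on the side of Arntl, and Clock, Per2, Nr1d1 and Tef were within 0.29 of 0 on the log2 scale. Per3 (-0.54), Bhlhe41 (-1.61) and Timeless (1.20) had log2 ratios farther from 0, with overlapping bounds. Bhlhe40 (-0.38), Rora (-0.014) and Tipin (0.095) also had overlapping bounds. Since the labels give no hour of harvest, an hour that differed between the groups and the genotype cannot be told apart in these values.

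**Figure D4:**
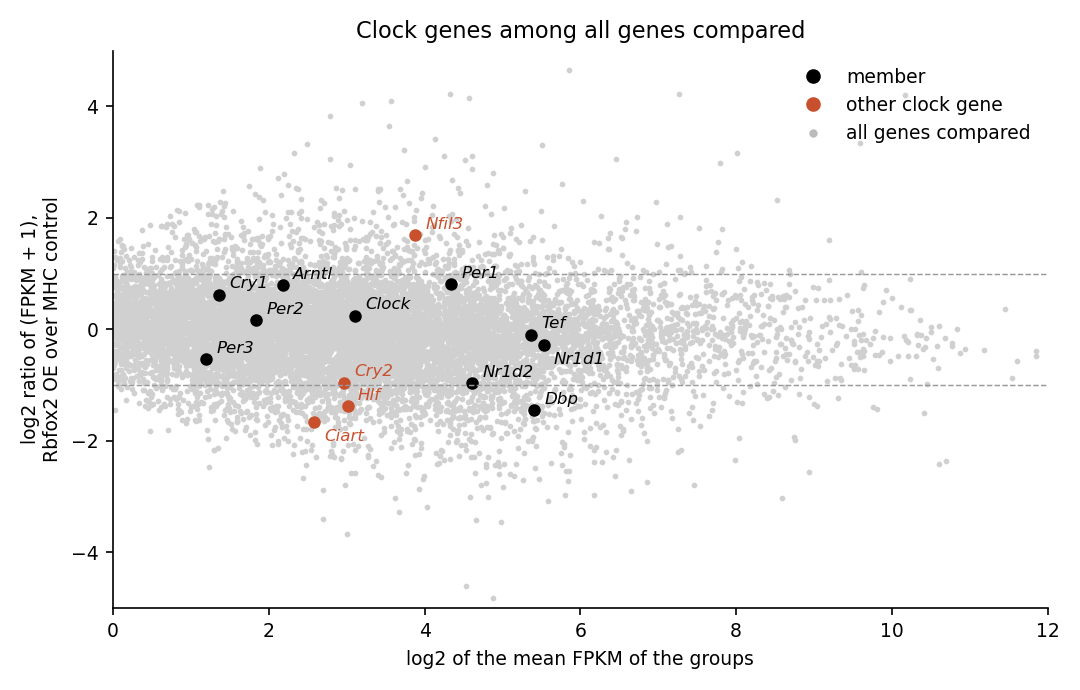
Log2 ratio of (FPKM + 1) against the log2 of the mean FPKM for the 11653 genes compared that were above 0 in both groups (grey, 11 of them outside the axes), with the 10 clock genes in black and Nfil3, Ciart, Hlf and Cry2 in orange; dashed lines mark a 2-fold difference. Dbp is the 1 member past the dashed lines, and the other 9 lie between them.

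Cells other than cardiomyocytes also run a clock, and their transcripts differed between the groups. By the authors' bounds, 6.67% of all genes compared were higher in Rbfox2 OE and 9.33% lower. Of 9 macrophage and leukocyte markers compared, 8 rose, and the whole list summed to 111 FPKM in MHC cells and 387 FPKM in Rbfox2 OE. Of 9 fibroblast markers 6 rose, with sums of 228 and 544 FPKM, of 9 endothelial markers 3 rose (242 and 421 FPKM) and of 8 smooth muscle and pericyte markers 3 rose (147 and 328 FPKM). None of these lists had a marker that fell, and none of their markers was at 0 in either group. Of 9 cardiomyocyte markers compared, 4 fell and 1 was higher, Atp2a2, which had no control estimate (median log2 ratio -0.62). In such bulk samples fewer cells of a type and less RNA per cell cannot be told apart, and the part of other cells in the clock values was not tested.

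The enzymes that modify clock proteins were compared next. Of 12 clock kinases and ubiquitin enzymes, 2 fell and 0 rose (2 and 1 on rescaling), a share near the 16.0% of all genes called in either direction, with a median log2 ratio of -0.030 that became 0.11 on rescaling. The casein kinase genes Csnk1d and Csnk1e, which mark PER proteins for breakdown, were among the 10 with overlapping bounds. Usp2, a ubiquitin protease with a strong rhythm, fell from 66.4 FPKM (40.7 to 92.1) to 18.8 FPKM (11.8 to 25.7), a log2 ratio of -1.77. Prkaa2, a catalytic subunit of AMP-activated kinase, fell from 27.9 to 7.91 FPKM, a log2 ratio of -1.70.

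Of 14 genes known to cycle in many tissues, 1 rose (Nfil3) and 4 fell (Usp2, Ciart, Herpud1 and Nampt), and the median log2 ratio was 0.42, beside 16.0% called and a median of -0.06 over all genes. Herpud1, of protein quality control in the endoplasmic reticulum, fell from 219 to 71.7 FPKM, and Nampt, the rate-limiting enzyme of NAD salvage, fell from 53.6 to 21.4 FPKM. Of 11 genes tied to the clock in heart, 2 fell and 0 rose, again near the 16.0% of all genes, with a median of -0.25: Gys1, muscle glycogen synthase, from 59.5 to 18.8 FPKM, and Dgat2, of triglyceride synthesis, from 115 to 54.4 FPKM. The other 9 of that list, Klf15 and Pdk4 among them, had overlapping bounds.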

How the data were processed

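Polyadenylated RNA of cardiomyocytes was sequenced from stranded TruSeq libraries, 2 per group, per the labels' protocols. The FPKM values and their bounds were estimated by the authors with Cuffdiff 2.2.1, per the file headers and the submitters' processing notes, which also name bcl2fastq 2.17.1.14, Trimmomatic, STAR 2.4.2a, Picard 1.119, HTSeq and DESeq2, with the build GRCm38 (mm10). The annotation and the level of the bounds are not given in the sources used here. The deposited table pools the libraries of a group, so samples entered through their group's columns; 0 columns of single samples were present and the depth is unknown.

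From the deposited FPKM values, rows of the same gene name (110 names) were added up, genes averaging 1 FPKM or more were compared, and log2 ratios were computed with a pseudocount of 1 (Python 3.11.15, pandas 2.3.3). No p-value was computed. The calculations were checked on simulated data. Gene coordinates are from GENCODE M21; 99.2% of the identifiers matched. The members and gene lists were chosen with earlier results of these data known. Named were the 10 members, the other clock genes averaging 1 FPKM or more, and from the remaining lists genes with separate bounds and a 2-fold difference, at most 4 per list and direction; genes named only as overlapping, as under 1 FPKM (Npas2, Arntl2 and Rorb), as markers or as listed examples were chosen after their values were seen. Some genes of the lists are not reported here and were left out of the list counts. Other pseudocounts, filters, thresholds and scalings were tried. No genes were ranked by likeness to the members, since 2 pooled values give no measure of it.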

Additional observations from a re-analysis of the deposited data

How the results depend on the processing

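No paired analysis was possible because both libraries of a group are merged into its 1 value, so replicates I and II cannot be matched. Leaving out each library was not run for the same reason, and the spread between libraries is unknown for every value. Depth is unknown.

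Centring on the median gene and rescaling without mitochondrial and top 10 genes each gave 1 clock gene higher by separate bounds (Arntl) and 0 lower, in place of 0 and 1 (Nr1d2). Each called 15.8% of all genes compared by bounds, in place of 16.0%. By fold, a pseudocount of 0.1 gave 2 lower (Nr1d2 and Dbp), beside 23.4% of all genes called in either direction. A 1.5-fold threshold gave 3 higher (Arntl, Per1 and Cry1) and 2 lower (Nr1d2 and Dbp), beside 38.6% of all genes. Rescaling turned the log2 ratio of Tef to 0.050, and the other 9 members kept their sign under each pseudocount and scaling tried. Relative to Clock the log2 changes of Per1 and Cry1 became 0.58 and 0.60, and with a pseudocount of 1 within the ratio to Arntl that of Per1 became 0.015. The median of the kinases and ubiquitin enzymes, -0.030, became 0.11 on rescaling, 0.042 on centring and 0.041 without the filter on low values. Means in place of medians were -0.012 for the genes cycling in many tissues and 0.19 for cardiomyocyte markers, the latter through Atp2a2, listed at 0 in the control. The cause of the other changes was not tested. Over all genes, 2-fold counts of 815 higher and 1172 lower became 304 and 559 with a pseudocount of 5 and 1938 and 2582 at 1.5-fold; keeping only genes averaging 5 FPKM or more, fewer in number, gave 446 higher by bounds, in place of 780, and 492 higher by fold.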

Other observations

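Per1 is also a gene of the glucocorticoid response, and the other genes of that response were described from a list that shares Per1, Klf9, Klf15, Tsc22d3 and Pdk4 with the clock and its outputs. Of 14 compared, 5 rose and 1 fell by the authors' bounds, and the median log2 ratio was 0.74, beside 16.0% called and a median of -0.06 over all genes. Mt2, a metallothionein, rose from 122 to 613 FPKM, Cdkn1a, a cell cycle inhibitor, from 38.0 to 112 FPKM, Errfi1, a brake on EGF receptor signalling, from 9.65 to 25.8 FPKM, and Ddit4, an inhibitor of mTORC1, from 18.9 to 49.0 FPKM. The fifth was Mt1, at 510 and 1046 FPKM, and the gene that fell was Dusp1, a phosphatase of MAP kinases, at 174 and 93.6 FPKM, a call lost on rescaling; both are outside the rule for naming and were chosen after their values were seen. Fkbp5, Sgk1 and Tsc22d3, named after their values were seen, had log2 ratios of 0.88, 0.68 and 0.67 with overlapping bounds, beside 0.81 for Per1. Zbtb16, Klf9, Klf15 and Pdk4, of the same list, had -0.14, 0.11, -0.29 and 0.43, also with overlapping bounds.

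The 12 immediate early genes compared answer to stimuli within minutes, as Per1 does. Of these, 1 rose and 3 fell, with a median log2 ratio of -0.28, beside 16.0% called and a median of -0.06 over all genes. The count of those not called includes Junb, named after its values were seen, which cannot be called by its bounds: its 192 and 225 FPKM lie above its own upper bounds of 1.44 and 1.23 FPKM. Myc rose from 3.60 to 10.7 FPKM, and Atf3, Jun and Dusp1 fell, Atf3 from 89.9 to 37.4 FPKM and Jun, named after its value was seen, from 183 to 97.3 FPKM. After rescaling 2 of the 12 were called higher and 0 lower, beside 15.8% of all genes called in either direction. Red blood cell markers rose in 4 of 5, beside 16.0% of all genes called in either direction. They summed to 56.6 FPKM in MHC and 295 FPKM in Rbfox2 OE, and the source of these transcripts was not tested.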
